A study of Mus musculus with 2 samples.

Results

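The cells described here were mouse embryonic stem cells with a high summed level of 7 genes: Lncenc1, Cdkn1c, Ceacam20, Smoc1, Adap1, Lgals3 and Sfmbt2. Barcodes with at least 2500 UMIs (unique molecular identifiers, each a counted RNA molecule), at least 1000 genes and at most 10% of UMIs in mitochondrial genes were kept as cells. Each cell was scored by its summed UMIs of the 7 genes per 10000 UMIs, and the top 10% of the pooled cells of both libraries were the members. They numbered 772 of 7709 kept cells. The measured levels of the 7 genes chose the cells, so every level of a member set against the other cells is a description and carries no test.

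Cdkn1c encodes p57, a Cip/Kip inhibitor of cyclin-dependent kinases that is imprinted and expressed from the maternal allele. Lncenc1 is a long non-coding RNA known from naive mouse embryonic stem cells, where it has been linked to glycolytic gene expression. Cultures of such cells in serum with leukaemia inhibitory factor (LIF), the cytokine that maintains self-renewal, are known to be heterogeneous in pluripotency and lineage genes.

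The study profiled E14 cells, an established stem cell line of 129/Ola background grown on gelatin with serum and LIF. The control library came from cells given a control siRNA and the sonKD library from cells given an siRNA against Son, which encodes a scaffold protein of nuclear speckles. Both siRNAs were delivered with Lipofectamine2000 at 24 h after seeding, and cells were harvested 24 h later, frozen, thawed, sorted for 7-AAD staining and run on the 10x Genomics 3' assay with v3 chemistry. The knockdown was transient and there was 1 library per condition, so a knockdown effect and a library difference cannot be told apart, and all intervals below are exact 95% intervals that cover counting error only.

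The count matrices held 71046373 UMIs in the control and 60352438 in the sonKD library, and 4978 and 2731 cells were kept. Median depth was 7737.5 UMIs per kept control cell and 11612 per kept sonKD cell. Only 2 barcodes were shared between the libraries, and 0 of them was a member. Summed over the members, the level of Son was 174.6 CPM (UMIs of a gene per 1000000 UMIs of the summed cells) in the control. It was 105.9 CPM in the sonKD library, a log2 ratio of -0.72 (-0.92 to -0.52). In the other cells the ratio was -0.67 (-0.73 to -0.60), so Son was lower in the sonKD library in members and other cells alike.

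In the control library 542 of 4978 cells were members, a share of 10.9% (10.0 to 11.8%, Clopper-Pearson). In the sonKD library 230 of 2731 cells were members, a share of 8.42% (7.41 to 9.53%). The sonKD share was lower by a difference of -2.47 percentage points (-3.82 to -1.07). The cut fell at a score of 3.84 UMIs per 10000 and has no gap around it: 122 members lay within 10% above it, 160 other cells lay within 10% below it, and 3226 kept cells (41.8%) had a score of 0. Members are therefore a range of a score and not a separate cell type.

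Members resembled the other cells in depth and quality. Median depth was 7616 UMIs in control members and 7750 in the other control cells, and 11554 and 11614 in the sonKD library. Mitochondrial UMIs had medians of 3.65% and 3.66% in the control and of 3.78% and 4.13% in the sonKD library, members first. The median doublet score of Scrublet, which simulates mixtures of cells, was 0.0834 in control members against 0.0973 in other control cells, and 0.0688 against 0.0889 in the sonKD library. Members were thus no deeper than the other cells and had no higher doublet scores by these medians.

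The score rested on few molecules per cell. The median member had 4 score UMIs in the control library and 6 in the sonKD library. UMIs of only 1 of the 7 genes were found in 112 control members (20.7%) and 37 sonKD members (16.1%), and all 7 genes were detected together in 0 control members and 1 sonKD member. Cdkn1c alone led the score in 34.3% of control and 33.0% of sonKD members, Lgals3 in 28.4% and 32.6%, and Sfmbt2 in 10.9% and 12.6%. After thinning each cell to 2500 UMIs, 19.004% of control members and 20.9% of sonKD members had no score UMI left.

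Cdkn1c was the most abundant score gene in the members. Its summed level was 209 CPM (196 to 223) in control members and 30.8 CPM (29.0 to 32.7) in the other control cells, and 225 CPM (207 to 243) against 23.5 CPM (21.8 to 25.4) in the sonKD library. The log2 ratios were 2.76 and 3.25. UMIs of Cdkn1c were found in 65.9% of control members and 20.02% of the other control cells, or 34.3% and 6.67% at 2500 UMIs per cell. Droplets of 100 to 500 UMIs, which hold mostly free RNA, had 44.1 CPM of Cdkn1c in the control library, above the level of the other kept cells. In the sonKD library they had 23.1 CPM, near the 23.5 CPM of the other cells. A UMI in a single cell outside the members is thus not distinguished from free RNA.

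Lgals3 encodes galectin-3, a lectin that binds galactosides. It stood at 182 CPM (169 to 195) in control members against 39.9 CPM (37.8 to 42.0) in the other control cells. The sonKD library had 221 CPM (204 to 240) against 42.7 CPM (40.4 to 45.1). The droplets held 88.2 CPM in the control and 76.2 CPM in the sonKD library, above the other cells and below the members in both.

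Sfmbt2 encodes a Polycomb-related protein with MBT domains and is imprinted, with expression from the paternal allele in extraembryonic tissue. Its level was 82.0 CPM (73.8 to 91.0) in control members and 10.0 CPM (9.02 to 11.1) in the other control cells, and 79.4 CPM (69.1 to 90.9) against 11.5 CPM (10.3 to 12.8) in the sonKD library. The droplets held 3.10 and 2.63 CPM, below the other cells. The level was nearly the same in the members of both libraries.

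Lncenc1, the RNA that gives the members part of their name, was a minor part of the score. It stood at 48.7 CPM (42.3 to 55.7) in control members against 6.76 CPM (5.95 to 7.66) in the other control cells. The sonKD library had 39.9 CPM (32.7 to 48.2) against 6.68 CPM (5.78 to 7.68). It supplied 8.23% of the score UMIs of control members and 6.28% of those of sonKD members, and 27.1% and 29.6% of members had a UMI of it.

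The other 3 score genes were rarer still. Adap1, an Arf GTPase-activating protein with PH domains, had levels of 36.6 (control) and 26.1 CPM (sonKD) in members against 6.93 and 6.78 CPM in the other cells. Ceacam20, a membrane protein of the carcinoembryonic antigen family, stood at 17.1 and 28.3 CPM against 3.81 and 4.80 CPM. Smoc1, a secreted calcium-binding protein that modulates BMP signalling, stood at 15.5 and 16.4 CPM against 1.45 and 2.32 CPM. Smoc1 had the lowest level of the 7 in the members of both libraries.

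**Figure D1:**
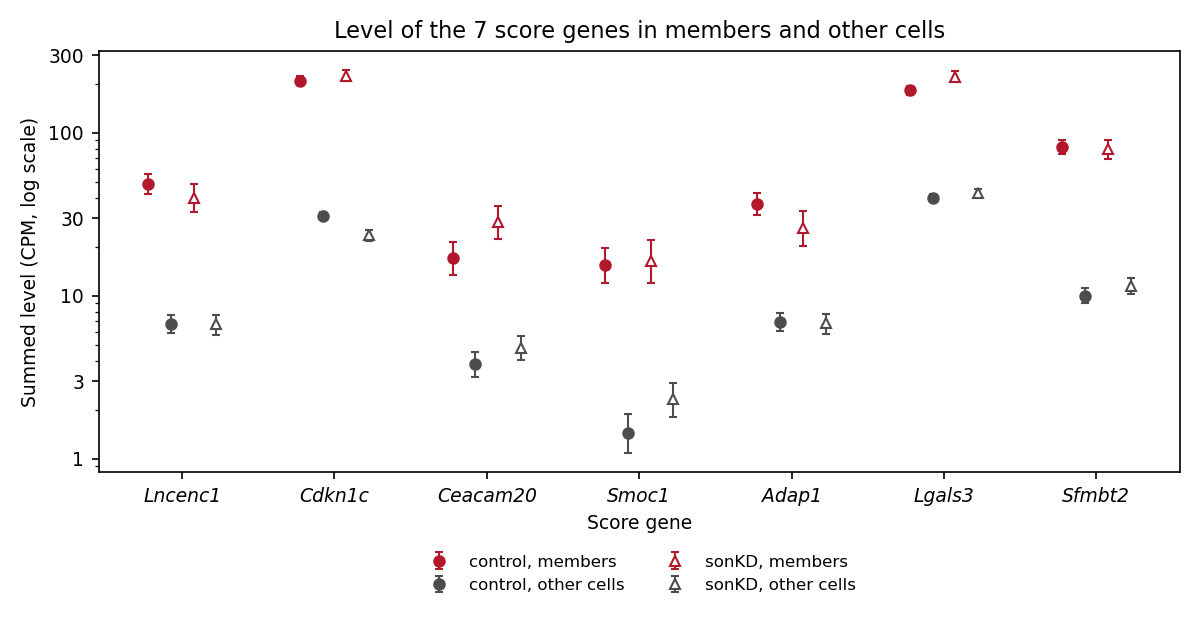
Summed level in CPM (log axis) of each score gene in members (red) and other kept cells (grey) of the control (filled circles) and sonKD (open triangles) libraries, with exact 95% counting intervals. The genes chose the members, so the gap is a description; Cdkn1c is the highest in members at 209 and 225 CPM and Smoc1 the lowest at 15.5 and 16.4 CPM.

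In mm10 coordinates (GENCODE M21) Lncenc1 lies at chr13:97434970-97497007 on the plus strand and Sfmbt2 at chr2:10370510-10595253 on the plus strand. Cdkn1c lies at chr7:143458339-143461050 on the minus strand and Ceacam20 at chr7:19965412-19991104 on the plus strand. Smoc1 lies at chr12:81026808-81186414 (plus), Adap1 at chr5:139271876-139325622 (minus) and Lgals3 at chr14:47367751-47386160 (plus). RefSeq promoter windows of GRCm38.p6, from 250 bases before to 50 after a start, were matched for 5 of the 7 genes, with 6 starts. The windows of Lncenc1 and of both starts of Sfmbt2 are shown because Lncenc1 differed between the chromosome 1 classes described below and because another RNA, Gm13261, overlaps the Sfmbt2 starts. Capitals mark CCAAT boxes (CCAAT) and GC boxes (GGGCGG) on either strand, and sequences run 5′ to 3′ on the gene's strand, at chr13:97434720-97435019, chr2:10370201-10370500 and chr2:10372186-10372485.
Lncenc1: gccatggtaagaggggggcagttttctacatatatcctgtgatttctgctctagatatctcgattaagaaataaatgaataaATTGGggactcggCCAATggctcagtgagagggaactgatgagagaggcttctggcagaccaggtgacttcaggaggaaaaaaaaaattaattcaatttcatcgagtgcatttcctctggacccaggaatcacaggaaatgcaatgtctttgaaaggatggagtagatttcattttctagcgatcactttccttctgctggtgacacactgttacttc
Sfmbt2, upstream start: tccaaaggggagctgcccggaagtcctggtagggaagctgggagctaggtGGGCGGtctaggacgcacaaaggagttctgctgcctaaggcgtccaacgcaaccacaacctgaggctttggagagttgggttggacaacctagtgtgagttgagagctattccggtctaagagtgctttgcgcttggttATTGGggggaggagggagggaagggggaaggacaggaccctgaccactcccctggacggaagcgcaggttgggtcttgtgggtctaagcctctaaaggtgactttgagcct
Sfmbt2, downstream start: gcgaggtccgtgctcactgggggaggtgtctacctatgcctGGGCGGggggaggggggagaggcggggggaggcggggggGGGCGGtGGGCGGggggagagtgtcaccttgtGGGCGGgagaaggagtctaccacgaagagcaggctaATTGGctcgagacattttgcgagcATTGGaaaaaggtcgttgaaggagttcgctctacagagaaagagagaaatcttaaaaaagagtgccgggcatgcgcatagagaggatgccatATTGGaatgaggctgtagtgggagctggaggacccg
The Lncenc1 window had 2 CCAAT boxes and no GC box. The upstream Sfmbt2 window had 1 CCAAT box and 1 GC box, and the downstream window had 3 and 4. Among 32851 promoter windows of the same length, 37.4% held a CCAAT box and 35.7% a GC box, so these motifs are common. Letters for a TATA box (TATAAA), an octamer (ATGCAAAT), a STAT motif (TTCNNNGAA), an ESRRB motif (TCAAGGTCA) and a KLF motif (GGGTGTGG) were not in any of the 6 windows, where 13.6%, 1.74%, 8.30%, 0.423% and 3.56% of all windows held them on either strand. GC content was 42.3% for Lncenc1 against a median of 52.7% over all windows, and 57.7% and 60.0% for the windows of Sfmbt2.

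Each score gene remained higher in high scorers when it was left out of its own selection. With members chosen by the other 6 genes, the log2 ratio of Lncenc1 was 1.64 (1.33 to 1.94) in the control and 1.67 (1.26 to 2.07) in the sonKD library. Smoc1 had the highest values, 1.84 (1.23 to 2.42) and 2.35 (1.73 to 2.94), and Lgals3 had the lowest, 0.66 (0.49 to 0.82) and 0.88 (0.69 to 1.07). For Cdkn1c the values were 0.67 (0.49 to 0.84) and 1.57 (1.38 to 1.76). All 7 genes had intervals above 0 in both libraries. The 7 genes were picked with earlier results of these data known, so these ratios are a description and carry no test.

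When the UMIs of each cell were divided at random into equal parts, and cells were chosen on the first part and measured on the second, the Cdkn1c ratio was 1.58 (1.38 to 1.78) in the control and 2.43 (2.20 to 2.67) in the sonKD library. Lgals3 had 1.10 (0.88 to 1.31) and 1.73 (1.50 to 1.95), and all 7 genes again had intervals above 0. These values come from the same data in which the 7 genes were picked, and they too carry no test. Of the 771 top cells of either part, 266 (34.5%) were top cells of both, so membership of a single cell was not well fixed at this depth. Pairwise correlations between score genes over cells thinned to 2500 UMIs were weak, with medians of 0.0211 over 21 pairs in the control and 0.0105 in the sonKD library. In counts this sparse such values are no finding.

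The members were embryonic stem cells by the marker list. All 12 listed stem cell genes were measured at 10 CPM or more, with a median log2 ratio of members over others of 0.01 in the control and -0.02 in the sonKD library, where the median of all 8074 genes was 0.01 in both. Pou5f1, which encodes the core factor OCT4, stood at 1162 CPM in control members and 1097 in other control cells, and at 941 and 914 CPM in the sonKD library. Nanog stood at 154 against 172 CPM and at 126 against 155 CPM. Zfp42 (REX1) stood at 661 against 642 CPM and at 574 against 625 CPM, and Sox2 at 323 against 355 CPM and at 296 against 340 CPM. The level of all 4 genes in members was within a log2 ratio of 0.5 of the other cells in both libraries, and Cdkn1a, the p21 relative of Cdkn1c, stood at 44.8 against 51.6 CPM and at 44.8 against 49.1 CPM.

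Outside the score, genes differed little. Of the other genes, 8074 averaged 10 CPM or more over the 4 sums. Among these, 92 (1.14%) were higher in members by a log2 ratio of at least 0.5 in the control and 228 (2.82%) in the sonKD library. Lower by as much were 126 (1.56%) and 268 (3.32%). The sonKD library has fewer members, and the cause of its larger counts was not tested. Both libraries shared 48 higher genes (0.595%) and 60 lower genes (0.743%). With TMM scaling, which sets the bulk of genes to equal levels, these counts were 34 and 79. The libraries hold different cells, and across genes, which are not independent replicates, their ratios had a Pearson correlation of 0.503.

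Outside the score genes, AY036118, annotated as a long non-coding RNA, had the highest ratio common to both libraries. It stood at 372 CPM in control members against 138 CPM in other control cells, and at 315 against 113 CPM in the sonKD library, log2 ratios of 1.43 (1.35 to 1.52) and 1.48 (1.37 to 1.59). The near-empty droplets held 2650.5 CPM in the control and 1575 CPM in the sonKD library, above members and others. The part of free RNA in its ratio was not tested. Whether its UMIs come from another RNA of the same place on the genome was not tested either. Gm13261, at chr2:10339283-10374041 on the minus strand, stood at 13.0 against 5.04 CPM and at 17.2 against 6.75 CPM. Its span covers both Sfmbt2 promoter windows on the opposite strand. The sources used here do not state how strand entered the counting. Whether reads of 1 of the 2 genes were counted for the other was not tested.

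Of the other highest genes, Krt18, a keratin of simple epithelia, stood at 37.0 against 18.3 CPM in the control and 164 against 22.0 CPM in the sonKD library. S100a6, a calcium-binding protein, stood at 177 against 92.8 CPM and at 644 against 204 CPM, and Lgals1 (galectin-1) at 203 against 107 CPM and at 440 against 150 CPM. The droplets held 238 CPM of Lgals1 in the control, above its members, and 263 CPM in the sonKD library. Plaur, the urokinase receptor, had log2 ratios of 0.83 and 0.79, Nrg1, a ligand of ErbB receptors, 1.00 and 1.19, and Fgfbp1, a secreted FGF-binding protein, 0.74 and 1.64. Ina, a neuronal intermediate filament, had 0.96 and 0.84. Flywch2 had 1.05 and 0.92, Larp1b 0.85 and 0.78, and Catsperz, a sperm ion channel subunit, 0.78 and 0.80. In the sonKD library the 3 most abundant of these genes had far wider gaps than in the control. The ratio of Plaur there changed sign between the chromosome 1 classes described below.

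The lowest genes included transcription factors and cytoskeletal genes. Zfp521, a zinc finger factor of neural differentiation, stood at 7.08 against 16.3 CPM in the control and 5.97 against 15.8 CPM in the sonKD library, log2 ratios of -1.21 and -1.40. The homeobox genes Vax2 and Meis2 had ratios of -1.10 and -1.10 and of -0.97 and -1.44. Stmn2, a microtubule regulator of the stathmin family, was the most abundant, at 268 against 479 CPM and at 216 against 446 CPM. Fmn1 and Ablim1, which act on actin, had ratios of -0.90 and -1.01 and of -0.90 and -0.95, and Ddit4l, an inhibitor of mTOR signalling, -0.86 and -0.87. Crtac1 had -1.04 and -0.83, Stox2 -0.79 and -0.96 and Ppip5k1, an inositol pyrophosphate kinase, -0.75 and -0.83. Uty and Ddx3y, both on the Y chromosome, had -0.96 and -1.06 and -0.97 and -0.82.

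**Figure D2:**
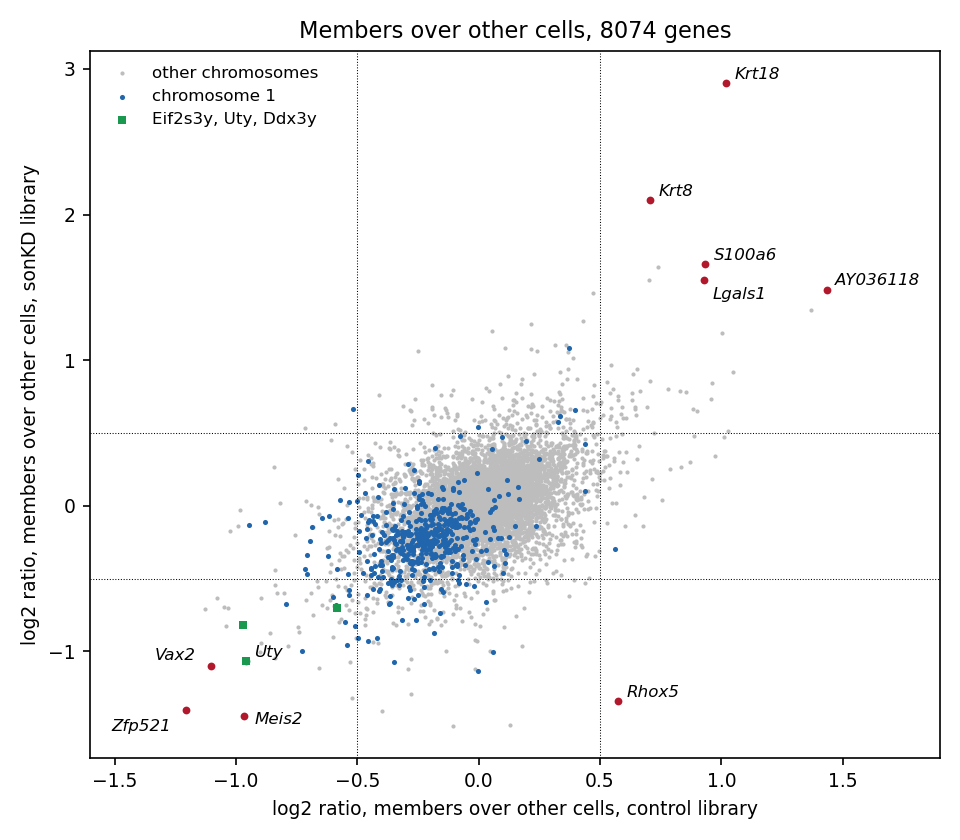
Each point is 1 of 8074 genes, by its log2 ratio of members over other cells in the control (x axis) and the sonKD library (y axis), with dotted lines at -0.5 and 0.5. Chromosome 1 genes (blue) lie mostly below 0 on both axes, AY036118 (1.43 and 1.48) lies farthest to the right and Krt18 (1.02 and 2.90) farthest up.

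The position of the lower genes on the genome was examined after the values were seen. Of the 483 measured genes of chromosome 1, 401 (83.0%) were lower in members in both libraries, where 30.8% of all 8074 genes were. Their median log2 ratio was -0.22 in the control and -0.22 in the sonKD library. On the other autosomes except chromosome 2, and on X, medians lay between -0.01 and 0.05 in the control and between -0.01 and 0.06 in the sonKD library. All 20 windows of 10 Mb on chromosome 1 had medians of -0.1 or less in both libraries, as had 1 of 223 windows outside chromosomes 1 and 2. The lower level thus spanned the whole of chromosome 1 and was small for each gene. None of the 7 score genes is on chromosome 1.

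**Figure D3:**
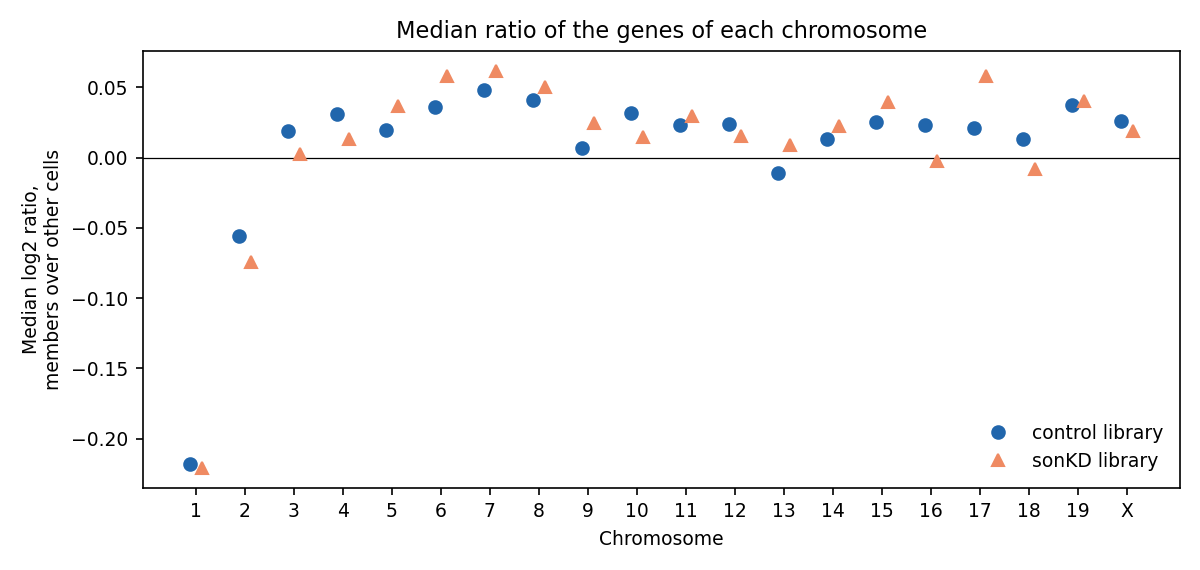
Median log2 ratio of members over other cells for the genes of each autosome and X in the control (circles) and sonKD (triangles) libraries. Chromosome 1 stands at -0.22 in both and chromosome 2 at -0.06 and -0.07. The 4 measured genes of Y, not drawn, had medians of -0.77 and -0.76. The other autosomes and X lie between -0.01 and 0.06.

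Chromosome 2 was divided. Its genes, in order of position, were cut into 5 segments by least squares on their ratios, after the values were seen. From 93 to 122 Mb the median of 106 genes was -0.21 in the control and -0.23 in the sonKD library. From 122 to 132 Mb the median of 61 genes was 0.18 and 0.22. From 132 to 170 Mb the median of 180 genes was -0.19 and -0.23, while the 264 genes below 93 Mb, where Sfmbt2 lies, had medians of 0.02 and 0.01. Meis2, Fmn1 and Ppip5k1, named above, lie between 93 and 122 Mb. The Y-linked genes Eif2s3y, Uty and Ddx3y summed to 115 CPM (105 to 125) in control members against 196 CPM (192 to 201) in other control cells, and to 87.3 CPM (76.5 to 99.2) against 155 CPM (150.4 to 159.4) in the sonKD library. Gm47283, also annotated on Y, lies at chrY:90784738-90816464, far from these genes, which lie between 1010543 and 1286629. It was not lower, at 260.5 against 238 CPM and 254 against 220.1 CPM. Whether its UMIs come from Y alone was not tested, so nothing on Y is read from its level. The files hold RNA counts, so the number of copies of a chromosome per cell was not measured.

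In single cells the share of UMIs from the 483 chromosome 1 genes fell into separate ranges. The median share was 5.58% in control members and 7.08% in other control cells, and 5.32% and 6.93% in the sonKD library. Its distribution had a low point between 82% and 86% of the library median, and cells under 84% were called low, a limit set after the data were seen. Between 80% and 88% lay 38 control members (7.01%) and 13 sonKD members (5.65%). In the same band lay 236 other control cells (5.32%) and 94 other sonKD cells (3.76%). These are few of all other cells, but not few beside the 550 and 397 other cells that were called low. The most abundant gene, Ptma, supplied 7.58% of the chromosome 1 UMIs.

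Low cells made up 302 of 542 control members, 55.7% (51.4 to 60.0%), and 550 of 4436 other control cells, 12.4% (11.4 to 13.4%). In the sonKD library they made up 140 of 230 members, 60.9% (54.2 to 67.2%), and 397 of 2501 other cells, 15.9% (14.5 to 17.4%). The gap was as wide in cells of at least 10000 UMIs, at 62.0% against 10.0% in the control and 65.2% against 16.7% in the sonKD library. Seen from the other side, 35.4% (32.2 to 38.8%) of low control cells were members and 5.82% (5.12 to 6.57%) of the rest, and 26.1% (22.4 to 30.0%) and 4.10% (3.31 to 5.02%) in the sonKD library. Over all kept cells, 17.1% were low in the control and 19.7% in the sonKD library. A low share was thus common among members in both libraries, with a further 240 control and 90 sonKD members that did not have it.

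**Figure D4:**
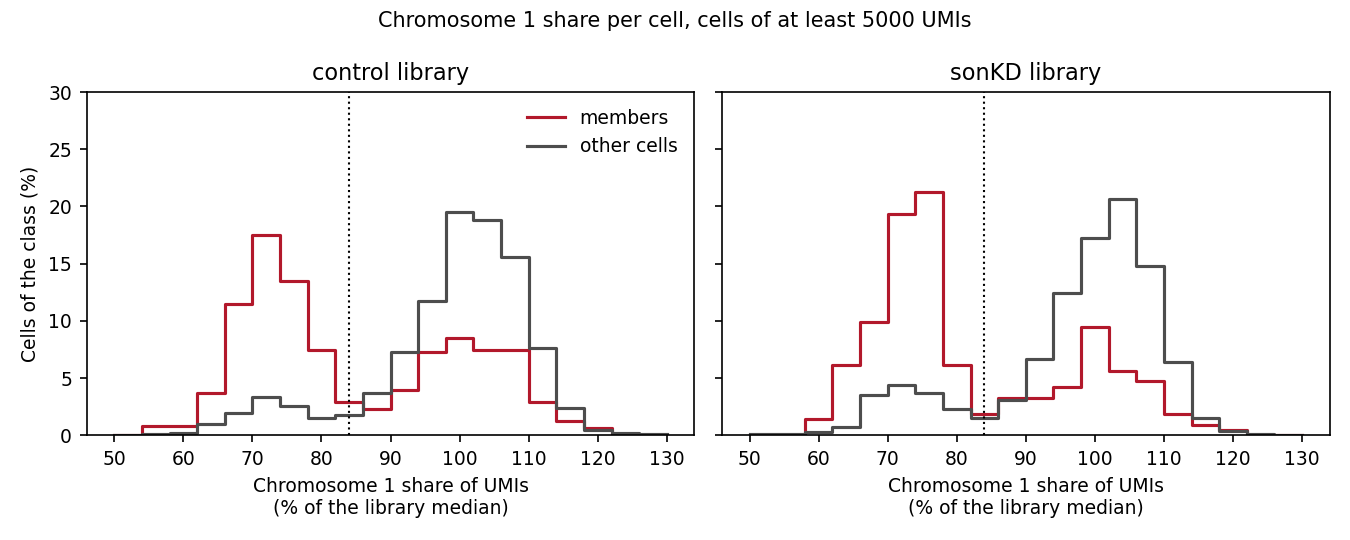
Distribution of the share of UMIs from chromosome 1 genes per cell, in percent of the library median, for members (red) and other cells (grey) of at least 5000 UMIs in the control (left) and sonKD (right) library. Both classes have 2 peaks; members are mostly left of the dotted line at 84% and other cells mostly right of it.

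The score genes differed in how they followed the chromosome 1 classes. Lncenc1 stood at 71.8 CPM in low control members and 17.6 CPM in the members that were not low. Outside the members it stood at 19.9 CPM in low control cells and 5.02 CPM in the rest. Of the sonKD library the 4 values, in the same order, were 56.2, 10.5, 21.2 and 3.93 CPM. Low cells outside the members thus had more Lncenc1 than the rest. Among cells outside the members the log2 ratio of low over not low was 1.99 (1.59 to 2.38) in the control and 2.43 (2.01 to 2.85) in the sonKD library.

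Smoc1 and Ceacam20 had a like pattern. Smoc1 stood at 23.1 CPM in low control members and 5.35 CPM in the members that were not low, and at 22.6 and 5.23 CPM in the sonKD library. Ceacam20 stood at 25.9 and 5.35 CPM in the control and at 37.1 and 12.6 CPM in the sonKD library. Adap1 stood at 41.5 and 29.9 CPM in the control and at 30.1 and 18.8 CPM in the sonKD library. Among cells outside the members, the Smoc1 log2 ratios of low over not low were 2.20 (control) and 1.98 (sonKD). They were 1.29 and 2.01 for Ceacam20 and 1.26 and 1.74 for Adap1.

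Cdkn1c, Sfmbt2 and Lgals3 were at least as high in the members that were not low, except Lgals3 in the control. Cdkn1c stood at 203 CPM in low and 218 CPM in not low control members, and at 203 and 263 CPM in the sonKD library. Sfmbt2 stood at 69.8 and 98.4 CPM and at 68.4 and 99.4 CPM. Lgals3 stood at 187 and 174 CPM and at 179 and 298 CPM. Outside the members these 3 genes were higher in low cells, with log2 ratios from 0.68 for Sfmbt2 in the control to 0.92 for Cdkn1c in the sonKD library. Low and not low members differed in the level of single score genes. Members were cut on the summed score, so those with less of some score genes needed more of the others to pass. The choice of members can thus set these gaps, and nothing is read from Cdkn1c, Sfmbt2 and Lgals3 in low against not low members.

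AY036118 differed more between the chromosome 1 classes than between members and others. It stood at 571 CPM in low members and 459 CPM in low other cells of the control, against 106 and 95.3 CPM in members and others that were not low. The sonKD values were 451 and 409 CPM against 69.0 and 56.4 CPM. Within low cells the log2 ratio of members over others was 0.32 (0.22 to 0.41) in the control and 0.14 (0.02 to 0.26) in the sonKD library. The 3 Y-linked genes ran the other way, at 35.1 and 76.4 CPM in low members and others of the control against 221 and 212 CPM. Their sonKD levels were 26.1 and 45.4 CPM against 198 and 175.5 CPM. Nrg1, Ina, Flywch2, Larp1b and Catsperz, named above, were also higher in low than in not low cells outside the members. Their log2 ratios ran from 0.67 (Larp1b, sonKD) to 1.42 (Nrg1, control).

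Stmn2 stood at 98.1 CPM in low control members and 168 CPM in low other cells, against 495 and 520.5 CPM in members and others that were not low. Zfp521 stood at 1.60 and 5.86 CPM against 14.4 and 17.7 CPM. Tfcp2l1, a naive pluripotency factor encoded on chromosome 1, stood at 172 and 182 CPM against 335 and 388 CPM. Stmn2 thus differed more between the chromosome 1 classes than between members and others. Tfcp2l1 did too, but it is among the 483 genes whose share defines the classes, so nothing is read from its gap. Zfp521 differed within low control cells too, by a log2 ratio of -1.88 (-3.86 to -0.34) that rests on 4 UMIs in low members. Within low sonKD cells its ratio was -1.30 (-3.69 to 0.45), on 3 UMIs in low members, and the interval included 0.

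Of the 60 lower genes, 30 were past a log2 ratio of 0.5 in both libraries between low and not low cells outside the members, as were 3.63% of all 8074 genes in that direction. Within low cells 24 of the 60 passed it between members and others in both libraries (0.855% of all genes), and within not low cells 6 did (0.372%). Of the 48 higher genes, 23 passed it between low and not low cells outside the members (0.929% of all genes), 1 within low cells (0.235%) and 20 within not low cells (0.917%). The same cells chose these genes, so nothing is read from the within-class counts. The sums also differ in depth, from 955954 UMIs in not low sonKD members to 32259682 in not low other control cells. Of the 60 lower genes, 10 are on chromosome 1 and entered the share that defines the classes. Any part they have in the count of 30 was thus partly set in advance.

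**Figure D5:**
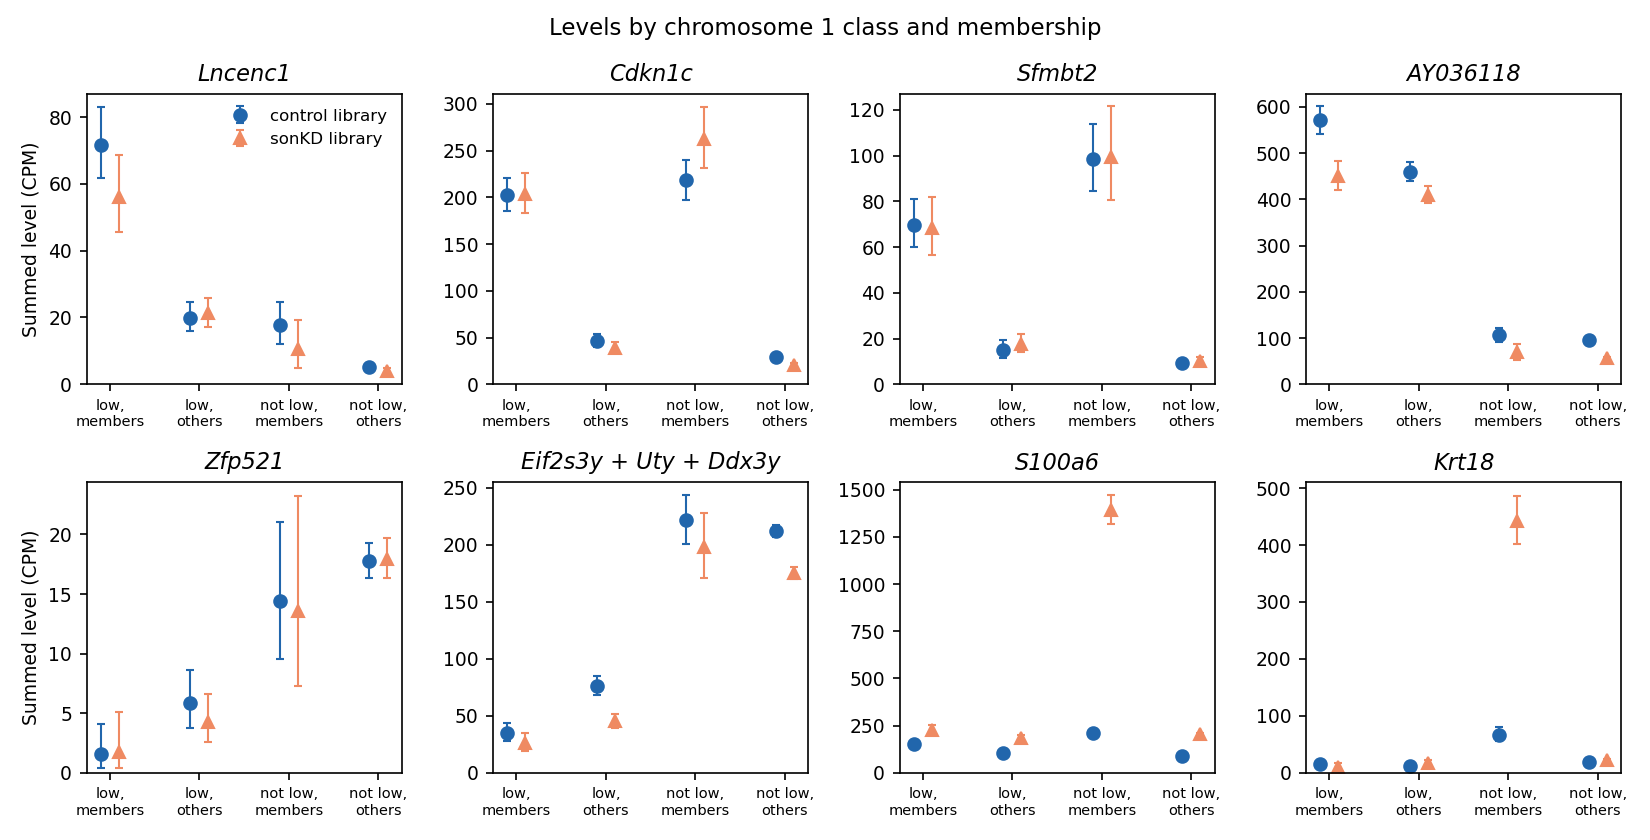
Summed level in CPM, with exact 95% counting intervals, of 7 genes and of 3 Y-linked genes summed, in low and not low chromosome 1 classes of members and other cells, for the control (circles) and sonKD (triangles) libraries. Lncenc1, AY036118, Zfp521 and the Y-linked genes differ between low and not low cells, and Krt18 and S100a6 are highest in not low sonKD members, at 442 and 1394 CPM.

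Krt18 and S100a6 were high in members that were not low. Krt18 stood at 66.8 CPM in not low control members, a log2 ratio of 1.81 over not low others, and at 442 against 22.8 CPM in the sonKD library. In low members it stood at 14.8 and 10.4 CPM. S100a6 stood at 1394 CPM in not low sonKD members, against 207 CPM in not low others and 228 CPM in low members. Of the S100a6 UMIs of not low sonKD members, 58.4% lay in the 10 cells with most. The median per cell was 86.4 CPM in these members and 62.4 CPM in not low others. Krt8, the partner keratin of Krt18, named after its values were seen, stood at 351 CPM in not low sonKD members against 34.5 CPM in not low others. In the sonKD library Plaur was lower in low members than in low others, by a log2 ratio of -0.70 (-1.31 to -0.13). In not low members it was higher than in not low others, at 1.83 (1.44 to 2.20). The control values were 0.37 (-0.12 to 0.86) and 0.99 (0.55 to 1.40).

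Few cells carried the keratins. Of 5 control cells with at least 10 Krt18 UMIs 4 were members, and of 13 such sonKD cells 10 were members, and 0 of these 14 members was low. In not low sonKD members the 10 cells with most Krt18 held 83.2% of its UMIs. Without all cells of at least 10 Krt18 UMIs, a choice made after seeing the data, the log2 ratio of Krt18 was 0.04 in the control and 0.81 in the sonKD library, and that of Krt8 was 0.28 and 0.28. S100a6 had 0.76 and 1.10, Lgals1 0.79 and 1.10, and Cdkn1c 2.75 and 3.27.

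The gene lists are given by counts and medians, beside the values over all genes. Over all 8074 genes, 35.8% were above 0 in both libraries and 30.8% below 0 in both. Of 9 measured genes of the epithelial and keratin list, 5 were past 0.5 in both libraries (0.595% of all genes). The list had medians of 0.54 in the control and 1.46 in the sonKD library, and few cells carried its keratins, as given above. Of 16 measured integrated stress response genes 12 were above 0 in both, with medians of 0.22 and 0.18. Herpud1, of endoplasmic reticulum protein degradation, had 0.70 and 0.68, and Mthfd2, a mitochondrial folate enzyme, 0.47 and 0.54.

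Of 21 measured p53 target genes 14 were below 0 in both libraries and 3 were past -0.5 in both (0.743% of all genes). The list had medians of -0.20 and -0.18. Ddit4l had the lowest values given above, and Plk2, a polo-like kinase, had -0.64 and -0.68. BMP response genes had medians of 0.28 and 0.32 over 5 genes, of which 4 were above 0 in both. Id2 and Id1, helix-loop-helix inhibitors and known BMP targets, had ratios of 0.54 and 0.97 and of 0.32 and 0.64.

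Of 18 measured naive pluripotency genes 10 were below 0 in both libraries, with medians of -0.03 and -0.11. Tfcp2l1, on chromosome 1, stood at 242 against 364 CPM and at 217 against 348 CPM, and was the only one past -0.5 in both. Klf4 had -0.46 and -0.47. Of 8 measured formative genes none passed 0.5 in both libraries, and Dnmt3a and Dnmt3b, the de novo DNA methyltransferases, had 0.29 and 0.55 and 0.26 and 0.52. Dnmt3l, their catalytically inactive cofactor, stood at 81.8 against 43.9 CPM and at 70.5 against 44.8 CPM, ratios of 0.90 and 0.65.

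Glycolysis genes had medians of -0.03 and 0.06 over 21 genes, with Ldhb, a lactate dehydrogenase subunit, at -0.66 and -0.56 as the exception past -0.5. Hypoxia genes had medians of -0.13 and 0.15 over 12 genes. Of 18 measured imprinted genes outside the score 11 were above 0 in both libraries, with medians of 0.08 and 0.08. Peg10, a paternally expressed imprinted gene, was the only one past 0.5 in both, at 0.63 and 0.73. The Platr long non-coding RNAs had medians of 0.15 and -0.14 over 7 genes, and the cyclin-dependent kinase inhibitors other than Cdkn1c -0.18 and -0.02 over 4 genes.

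LIF and STAT3 pathway genes had medians of 0.08 and -0.10 over 13 genes, with Myc at 0.53 and 0.85 and Tfcp2l1, which is also on the naive list, at -0.59 and -0.68. The Nodal feedback genes had medians of 0.00 and 0.45 over 5 genes, and Lefty1, a Nodal antagonist encoded on chromosome 1, had 0.37 and 1.08. The lysosome list had medians of 0.14 and 0.06 over 16 genes, with Ctsl (cathepsin L) at 0.31 and 0.61. Immediate early and heat shock genes had 0.03 and 0.00 over 10 genes, and ribosomal protein genes -0.02 and 0.00 over 81.

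Of the markers of other cell types few were measured at 10 CPM or more. The summed level of 16 primitive endoderm genes was 443 CPM in control members against 423 CPM, and 428 against 401 CPM in the sonKD library, with 5 genes at 10 CPM or more. The 16 trophectoderm genes summed to 132.3 against 101 CPM and to 371 against 100.2 CPM, where 3 genes were at 10 CPM or more, Krt8 and Krt18 among them, and 3 were without a UMI. The summed level of 10 neuroectoderm genes was 155 against 121 CPM and 127 against 105 CPM. The fibroblast list summed to 133.9 against 201 CPM and to 101 against 163 CPM, almost all from Fn1, a chromosome 1 gene. The 13 listed genes of the state resembling the 2-cell embryo had 0 UMIs in members of both libraries, which allows a level of up to 0.685 CPM per gene in the control and 1.12 CPM in the sonKD library (3 UMIs of the members' total). The part of these levels in the members' profile was not tested.

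By cell cycle phase calls at 2500 UMIs per cell, 47.8% of control members were in S phase against 52.7% of the other cells, a difference of -4.90 percentage points (-9.42 to -0.35). In the sonKD library the shares were 45.7% and 50.5%, a difference of -4.85 (-11.7 to 2.12). The G2M share was 49.8% of control members against 44.4% of the others, a difference of 5.38 percentage points (0.85 to 9.92), and 49.1% against 45.0% in the sonKD library, a difference of 4.11 (-2.81 to 11.045). S phase was called in 41.4% of low and 55.8% of not low control members, and in 42.2% and 54.2% of low and not low other cells. The sonKD shares were 40.0% and 54.4% of members and 41.1% and 52.3% of others. In S phase, members and others of a class thus lay closer together than the classes did. In G2M and G1 this did not hold in every class, as 33.3% of not low sonKD members were called G2M and 12.2% G1, against 43.7% and 3.99% of not low others. Low sonKD members and others had G2M shares of 59.3% and 51.9%. The phase lists hold chromosome 1 genes such as Dtl and Cenpf, and their part in these calls was not tested.

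Between the libraries, the members' sums differed by a log2 ratio of at least 0.5 at 863 of 8074 genes (10.7%), of which 265 (3.28%) were higher and 598 (7.41%) lower in sonKD. The other cells, whose sums are much deeper, differed at 319 genes (3.95%), 121 (1.5%) higher and 198 (2.45%) lower. With TMM scaling the split was 390 higher and 349 lower in members and 187 and 101 in the other cells, so the balance of directions depends on the scaling. The median over all genes was -0.11 in members and -0.12 in the other cells under CPM, and -0.02 and -0.03 under TMM.

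Among the score genes, Ceacam20 was higher in sonKD than in control members, with a log2 ratio of 0.73 (0.25 to 1.21), and Lgals3 had 0.28 (0.13 to 0.44). Adap1 had -0.49 (-0.91 to -0.07), and for Lncenc1, Cdkn1c, Smoc1 and Sfmbt2 the interval included 0. In the other cells Cdkn1c had -0.39 (-0.53 to -0.25) and Smoc1 0.68 (0.14 to 1.22). The pooled cut sets these levels in members, so they describe the members and carry no test.

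Of the 5 genes highest in sonKD over control members, Hist1h2ap, Rpl29, Gm10076 and Rps27 had ratios of 2.43, 2.04, 1.95 and 1.91 in members and of 2.39, 1.99, 1.57 and 1.76 in the other cells. Histone and ribosomal protein genes have near-identical copies, so their counts are uncertain. Krt18 was the other, at 2.15 (1.89 to 2.42) in members and 0.27 (0.11 to 0.43) in the other cells. S100a6 had 1.86 in members and 1.14 in the other cells. Neat1, the RNA that scaffolds paraspeckles, had levels of 94.6 (control) and 169 CPM (sonKD) in members and of 86.3 and 229 CPM in the other cells, ratios of 0.84 (0.64 to 1.03) and 1.40 (1.34 to 1.47). Malat1, a nuclear speckle RNA, had -0.19 in members and -0.27 in the other cells.

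The lowest in sonKD over control members were Rhox5 at -1.91 (-2.67 to -1.22), Mettl25 at -1.86, 2510039O18Rik at -1.38, Cenpl at -1.34 and Gm37982 at -1.33. In the other cells they had ratios of 0.00, -0.22, -0.43, -0.21 and -0.27. Their levels in sonKD members lay between 5.22 and 8.58 CPM, in the range where counting error is large. Gm37982 is annotated as an antisense RNA, and whether reads of a gene on the opposite strand were counted for it was not tested.

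Genes whose UMIs correlated most with the score over cells at 2500 UMIs, outside the score itself, were AY036118 with r of 0.141 in the control and 0.115 in the sonKD library, Stmn1, Lgals1, Hspb1 and Actb. Their smaller r lay between 0.0720 and 0.115, weak values over 4978 and 2731 cells of shared libraries. Stmn1, a stathmin, stood at 1125 against 867 CPM in the control and 1213 against 948 CPM in the sonKD library. Hspb1, a small heat shock protein, stood at 1797 against 1430 CPM and at 1719 against 1416 CPM.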

How the data were processed

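The authors deposited raw count matrices (UMIs per gene and barcode, every barcode listed) made with Cell Ranger 7.1.0, per the file headers and the submitters' processing notes, on mm10, per the submitters' processing notes. Neither the annotation nor whether intronic reads were counted is given in the sources used here, and gene positions were taken from GENCODE M21 by gene ID. Members and gene lists were chosen with earlier results of these data known.

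UMIs were summed over members and over other cells of each library and expressed as CPM. Ratios are log2 of CPM with exact conditional binomial intervals, levels have exact Poisson intervals, shares Clopper-Pearson intervals, all at 95%. There was 1 library per group, so no test was run. Genes needed a mean of 10 CPM over the 4 sums, and the log2 ratio named was 0.5. The UMI divisions, thinning to 2500 UMIs and phase calls (scanpy 1.11.5) used a fixed seed. Scrublet called 0.141% of control and 0.403% of sonKD cells as doublets, under 0.5%, and was not used to remove cells. As an alternative the highest scores were removed at a rate of 0.8% per 1000 cells. TMM factors came from edgeR 4.0.16 in R 4.3.3, other values from Python 3.11.15 with numpy 2.4.6 and scipy 1.17.1. The ratio and interval functions were tested on simulated data.

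Genes named were the 7 score genes, the 12 highest and 12 lowest by the ratio nearest 0 of both libraries, 10 fixed genes, the 2 farthest from 0 in each of 28 lists, the 5 highest and 5 lowest between libraries among members, and the 5 whose counts correlated most with the score. Krt8, Eif2s3y, Gm47283 and Ptma were named after their values were seen. Not every gene under this rule is printed.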

Additional observations from a re-analysis of the deposited data

Results flagged for a closer look

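Rhox5, an X-linked homeobox gene, was past a log2 ratio of 0.5 in opposite directions in the 2 libraries. It stood at 28.1 CPM in control members against 18.9 CPM in other control cells, and at 7.46 CPM in sonKD members against 18.9 CPM in other sonKD cells. The ratio of members over others was 0.58 in the control and -1.34 in the sonKD library, so that sonKD minus control was -1.91. The difference was not tested, and 4 of 8074 genes (0.0495%) were past 0.5 in opposite directions in this way.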

How the results depend on the processing

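The 8 main results were recomputed under up to 27 alternatives each. The sonKD minus control difference in member share had 1 alternative outside its counting interval, -1.01 percentage points for the top 5% of cells, and stayed below 0 in all. The S phase differences stayed within their counting intervals in all 15 alternatives of each library. Counts of genes higher and lower in members in both libraries were 48 and 60. They were 106 and 83 for the top 5%, 19 and 26 for the top 20%, 28 and 31 with the score taken at 2500 UMIs per cell, 9 and 8 at 50 CPM or more, 322 and 372 at a log2 ratio of 0.25, 4 and 2 at a log2 ratio of 1, and 404 and 233 over all 12894 genes with at least 3 UMIs in each sum. At 2500 UMIs the score is a whole number, and the limit of 2 UMIs nearest to 10% gave 528 members (6.85%). The lower count was 28 without Cdkn1c in the score, 36 without Lgals3, and 38 with members and levels from separate parts of the UMIs. Alternatives added after seeing the data gave 98 higher and 23 lower genes in cells not low in chromosome 1, and 18 higher genes in low cells. The count of genes apart between sonKD and control members, 863, was 1351 for the top 5%, 540 for the top 20%, 182 at 50 CPM or more, 2914 without the filter, 3171 at 0.25 and 69 at 1.

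The share of control members low in chromosome 1, 55.7%, was 64.8% for the top 5%, 43.0% for the top 20%, 50.3% at 2500 UMIs, 51.1% without Cdkn1c, 50.9% without Lgals3, 50.0% with separate parts of the UMIs and 51.3% with the limit at 80% of the median. The sonKD share, 60.9%, was 52.99% for the top 20% and 49.4% at 2500 UMIs. Without the 10 most abundant chromosome 1 genes the shares were 52.6% and 57.8%.

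Among values of named genes, 10 of 6607 had the opposite sign to a main value past 0.5. Larp1b in sonKD (-0.0187) and Fgfbp1 in the control (-0.24) did so at 2500 UMIs, Lefty2 in sonKD for the top 20% (-0.0356) and without Cdkn1c (-0.0396), Rhox5 in the control at 5% mitochondrial UMIs or less (-0.0105), and Krt8 in the control without Lgals3 (-0.0724). Fgfbp1 in the control (-0.0413), Gm37982 in sonKD (0.12) and Gm37982 between libraries (0.35) did so with separate parts of the UMIs, and Krt8 between libraries without cells of 10 Krt18 UMIs (-0.0638). The cause was not tested in any of these cases. No paired analysis was possible because each group had 1 library. With a median of 4 or 6 score UMIs per member, depth limits which cells are called members.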
